A study of Mus musculus and Homo sapiens with 12 samples.

Results

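Of 35162 regions formed by merging the m5C peaks of 3 mouse embryonic stem cell (mESC) libraries, 3096 held peaks of exactly 2 libraries, and 1469 of these had their midpoint inside an annotated gene. These 1469 genic regions, called members here, are described below. Peaks were merged per chromosome and strand where they shared at least 1 bp, and the gene could lie on either strand. They are set beside 16772 genic regions with a peak of 1 library and 618 with peaks of all 3. Chromatin-associated RNA (caRNA), the RNA kept in the chromatin fraction, came from wild-type mESC and from wild-type K562, an established human leukaemia line. Each line gave 3 m5C-IP libraries, made from fragments pulled down with an antibody against 5-methylcytosine, and 3 Input libraries made without pull-down. The mESC were labelled as coming from embryos and, by the study's methods, were grown in serum with LIF and inhibitors after feeder cells were cleared. Groups followed the library titles, because the antibody label named none for mESC IP and the m5C antibody for K562 Input. The study calls its replicates biological, but the labels do not say that these came from separate cultures, so p-values measure the spread between these libraries, which may be technical.

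m5C is made on RNA by methyltransferases of the NSUN family and DNMT2, can be oxidised by TET enzymes, and is bound by reader proteins such as MBD6, which brings the histone H2A deubiquitinase complex PR-DUB, with BAP1, to chromatin. caRNA is rich in unspliced transcripts, so introns and the repeats inside them are sequenced along with exons. NSUN2 is known for cytosines followed by G-rich sequence (CNGGG, where N is any base), and NSUN6 for CTCCA.

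Members of 4 kinds are shown by their sequence, to give the range of what was pulled down. They are a coding exon, an exon of a long non-coding RNA, a repeat and a stretch of intron under 10% repeat-masked. Exon or intron was set by the midpoint, so the bases shown can reach past the edge of an exon. The last is labelled unique, though copies of it were not searched for. Candidates lay on their gene's strand and were limited in width and location. Each region shown had the largest share of bases covered by both peaks, which was 100% in all 4. Ties went to the host most abundant in Input. Sequences are from GRCm38, 5′ to 3′ on the recorded strand, with each CNGGG in capitals.
Cyth3, coding exon, chr5:143707362-143707514, plus strand: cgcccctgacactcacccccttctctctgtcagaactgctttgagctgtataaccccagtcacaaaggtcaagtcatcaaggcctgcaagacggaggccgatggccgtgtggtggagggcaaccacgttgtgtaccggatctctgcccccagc
Mirt1, non-coding exon, chr19:53450957-53451106, minus strand: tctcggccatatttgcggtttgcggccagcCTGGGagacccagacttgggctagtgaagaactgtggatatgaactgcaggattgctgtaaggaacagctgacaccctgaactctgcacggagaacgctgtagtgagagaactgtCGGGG
Utrn, repeat-masked intron, chr10:12386739-12386888, minus strand: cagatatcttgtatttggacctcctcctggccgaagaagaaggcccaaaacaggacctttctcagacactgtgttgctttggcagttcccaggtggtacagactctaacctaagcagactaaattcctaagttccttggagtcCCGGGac
Mad1l1, unique intron, chr5:140146159-140146308, minus strand: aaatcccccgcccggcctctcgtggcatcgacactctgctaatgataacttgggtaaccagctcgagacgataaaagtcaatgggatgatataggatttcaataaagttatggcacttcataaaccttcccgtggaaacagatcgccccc
The Mirt1 region held 2 CNGGG, the Utrn region 1, and the Cyth3 and Mad1l1 regions none. Cyth3 encodes a guanine exchange factor for ARF proteins, Utrn the dystrophin relative utrophin and Mad1l1 a spindle checkpoint protein. The bases were 58.8% G or C in the Cyth3 region, 54.7% in Mirt1, 49.3% in Utrn and 48.0% in Mad1l1, and 100% of the Utrn region was repeat-masked against 0% of each of the other three.

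The members were spread over all 3 pairs of libraries. Replicates 2 and 3, whose peak lists held 15235 and 15630 distinct peaks, shared 689 members (46.9%). Replicates 1 and 3 shared 401 and replicates 1 and 2 shared 379, and replicate 1 had the shortest list, with 11012 peaks. About 7.0% to 7.09% of the peaks of each list lay in members. The pairs resembled each other in position and base content: 27.4% to 31.9% of their members lay in exons, 44.9% to 46.7% on the gene's strand, and the median GC content was 54.0% to 54.7%.

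Most members were narrow and were placed alike by both libraries. The median width was 156 bp (150 to 847), and 1464 of the 1469 held 1 peak per library. Both lists covered at least 90% of the bases in 863 members (58.7%) and under 50% in 236 (16.1%). At the limit of the rule, the least overlapping members shared 2 bp, in Gm19719 and 4930519F16Rik, while 14 neighbouring pairs of regions with a peak of 1 library lay apart by at most 10 bp. The library without a peak had one on the same strand within 1000 bp of 142 members (9.67%) and one on the opposite strand over 81 (5.51%). For 18 members the central 150 bases were identical to those of another member, and reads of such copies cannot be assigned to one locus with certainty.

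Introns held most members, and coding exons a larger share of them than of the other genic regions. The midpoint lay in an intron in 1042 (70.9%), in a coding sequence (CDS) in 232 (15.8%), in a UTR in 92 (6.26%) and in another exon in 103 (7.01%). The exonic share was 29.1% (95% exact binomial interval 26.8 to 31.5), against 21.1% (20.5 to 21.7) of regions with a peak of 1 library and 21.5% (18.3 to 25) of regions with peaks of 3. The CDS share was 11.2% in regions with 1 library and 9.87% in those with 3. These shares thus did not run in 1 direction with the number of libraries. Regions are not replicates of a condition, so the intervals cover counting error only and no test was made. The value also depended on the definition: regions held by both remaining lists after leaving out 1 library, which include those held by all 3, were exonic in 23.6% to 25.5%.

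**Figure D1:**
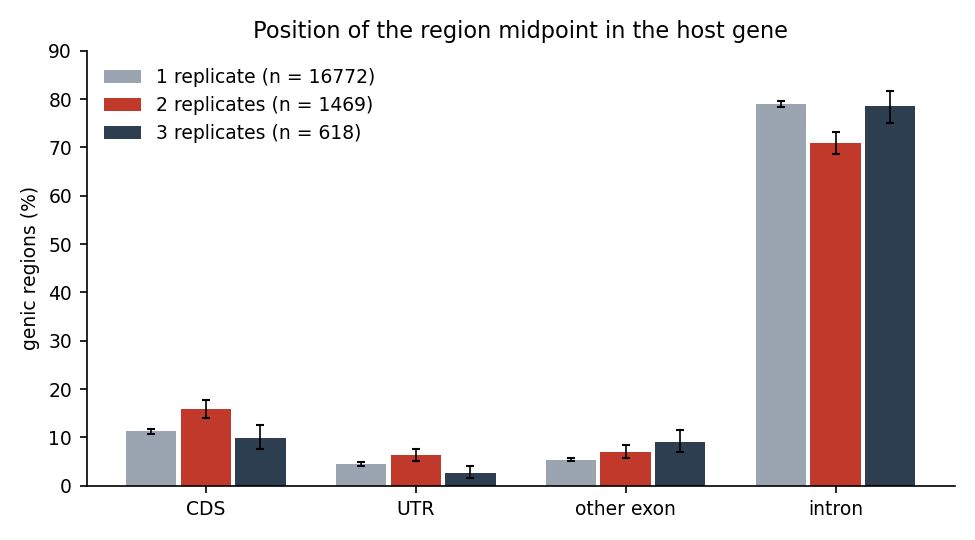
Share of genic regions (percent, vertical axis) by the position of the midpoint in the host gene, for regions with peaks of 1, 2 or 3 mESC IP libraries; bars are shares and lines exact 95% binomial intervals. Regions with 2 libraries have the tallest CDS bar, 15.8%, and the shortest intron bar, 70.9%.

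Along the host gene the members were spread widely. Cut into 5 equal parts from start to end, host genes held 23.3%, 18%, 19.6%, 17.6% and 21.5% of them. Within 1000 bp of the annotated start lay 169 members (11.5%), compared with 7.60% of regions with a peak of 1 library and 11.8% of those with 3. Host genes were protein-coding for 1173 members, long non-coding for 210 and pseudogenes for 69.

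Fewer members lay on the strand of their host gene than on the opposite one: 675 of 1469 (45.9%, interval 43.4 to 48.5). A gene on the peak's strand was preferred where genes of both strands covered the midpoint. Over the 1352 midpoints covered by genes of 1 strand only, 41.3% were on the gene's strand. The share was 40.5% in CDS, 39.1% in UTRs, 46.6% in introns and 57.3% in other exons. It was 43.7% for regions with a peak of 1 library and 52.4% for regions with 3. With protein-coding hosts alone it was 41.1%.

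**Figure D2:**
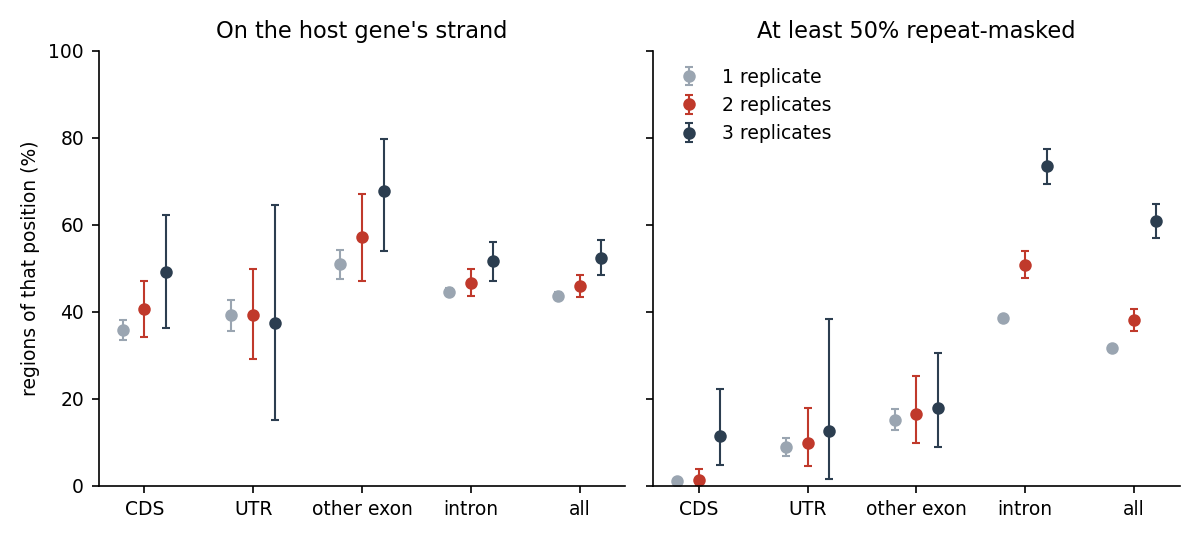
Share of regions (percent) on the host gene's strand, left, and at least 50% repeat-masked, right, within each position and over all genic regions; points are shares and lines exact 95% binomial intervals for regions with peaks of 1, 2 or 3 mESC IP libraries. The repeat-masked share of intronic regions rises from 38.5% through 50.8% to 73.6%.

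The gene counts could be read by strand. In them, 209 small genes nested in introns of highly counted coding genes on the same strand had no Input count, and 258 of 418 nested on the opposite strand had some. The counts therefore covered introns and kept the strand, and reads of an opposite-strand member did not count towards its host gene. IP levels with and without a peak are given as a description only, since the rule used peaks of these libraries. Of 164 hosts whose only region was a member on their own strand, 102 (62.2%) had higher IP levels (CPM, gene counts scaled to a total of 1000000) in both libraries with the peak than in the third, with a median of 28.5 CPM with the peak and 14.8 without. Of 189 hosts whose only region lay opposite, 55 (29.1%) did, and the medians were 22.0 and 22.1 CPM. The first medians stood for 15.8 and 8 reads, so these peaks rested on few fragments.

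Repeats made up a middle share of the members. At least 50% of the bases were repeat-masked in 558 (38.0%, interval 35.5 to 40.5), against 31.7% of regions with a peak of 1 library and 60.8% of regions with 3. The share was 50.8% in introns and 1.29% in CDS. All bases were masked in 355 members and none in 459. The share was higher, at 43.4%, in members on the gene's strand, and lower, at 34.6%, with coding hosts alone.

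The members were richer in G and C than regions with a peak of 1 library. In the central 150 bases the median GC content was 54.0%, against 50.7% and, with 3 libraries, 56.7%. It was 60.0% in CDS, 58.0% in UTRs, 56.0% in other exons and 52.7% in introns. On the gene's strand, intronic members had a median of 28.7% G and 24% C, and on the opposite strand 26.7% G and 26% C. CNGGG occurred in 57.6% of the members' windows on the peak's strand and in 55.2% on the other, so the 2 strands differed little. In regions of 1 and 3 libraries it occurred in 50.7% and 61.9%, an order that GC content shared. CTCCA, whose last bases CA can open a CNGGG, occurred in 16.9% of the members, 20.5% on their other strand, and 20.5% and 16.1% of regions with 1 and 3 libraries. The part of base composition in these shares was not tested.

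**Figure D3:**
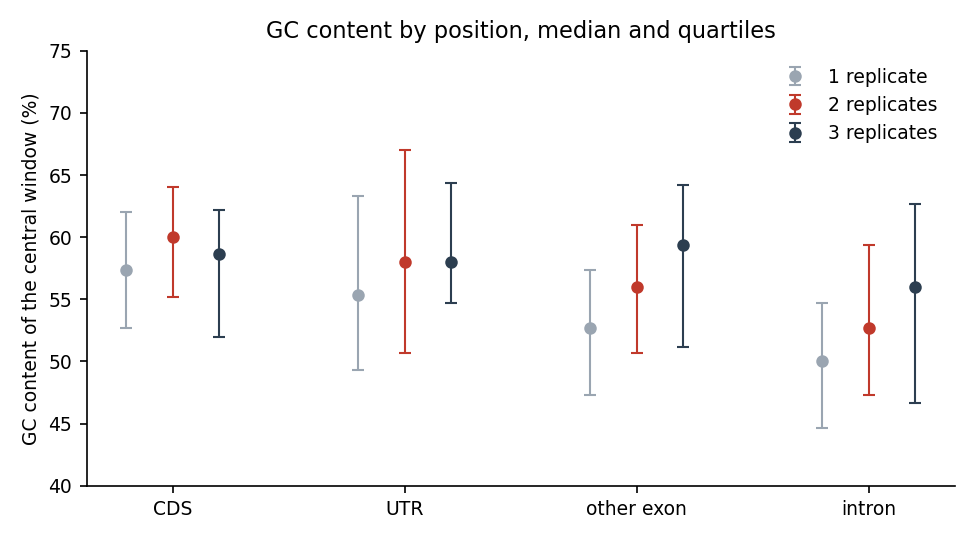
GC content (percent) of the central 150 bases by position in the host gene, for regions with peaks of 1, 2 or 3 mESC IP libraries; points are medians and lines reach from the lower to the upper quartile. Members in CDS have the highest member median, 60.0%, and those in introns the lowest, 52.7%.

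The 1469 members fell in 1226 host genes, 1068 of which held a single member. Of these hosts, 839 also held a region with a peak of 1 library and 145 a region with 3. Long genes were hosts more often: 1.36% of coding genes under 10 kb, 4.15% of those of 10 to 100 kb, 14.1% of those of 100 to 500 kb and 31.7% of longer ones. Per megabase of gene the order was the opposite, from 3.13 members in the shortest class to 0.557 in the longest. Chromosome 5 held 175 members (11.9%), and a stretch of 5 Mb, chr5:140000001-145000000, held 62 in 34 hosts. That stretch had 4.22% of the members, 1.86% of the regions with 1 library and 3.56% of those with 3. Its hosts included Foxk1, Mad1l1, Cyth3, Rac1, Trrap and Tnrc18.

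Hosts of opposite-strand members were far more abundant in Input than hosts of members on their own strand. The libraries behind these values held 29007088 to 34752646 gene counts in mESC Input and 473398 to 592324 in mESC IP, so 3 counts stood for 0.0863 to 0.103 CPM in Input and for 5.06 to 6.34 CPM in IP. In the 3 Input libraries the median over the 721 counted hosts with an opposite-strand member was 15.4, 15.3 and 15.7 CPM. Over the 583 hosts with a member on their strand it was 2.24, 2.15 and 2.04 CPM. The ranges of the 3 libraries did not overlap, and a host with members on both strands counted in both groups. Per kilobase of gene span the medians were 0.303 and 0.0292 CPM. Whether Input served as the control of the peak caller was not stated, and its part in this difference was not tested. Hosts that overlap another gene on their own strand can lose counts, and the part of this was not tested either.

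For the members the same order held within CDS, UTRs, introns and other exons. For CDS members the median Input level of the hosts was 14 ± 0.80 CPM (SD, n = 3 libraries) on the opposite strand and 0.84 ± 0.094 on the gene's strand. For intronic members it was 18.7 ± 0.14 and 4.51 ± 0.14 CPM. Hosts of regions with a peak of 1 library showed 11.6 and 2.21 CPM over all positions. Hosts of regions with 3 libraries showed 4.38 CPM on the opposite strand and 3.84 on their own, closer together, and their intronic regions had the reverse order, 4.60 CPM opposite and 7.45 on their own strand.

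**Figure D4:**
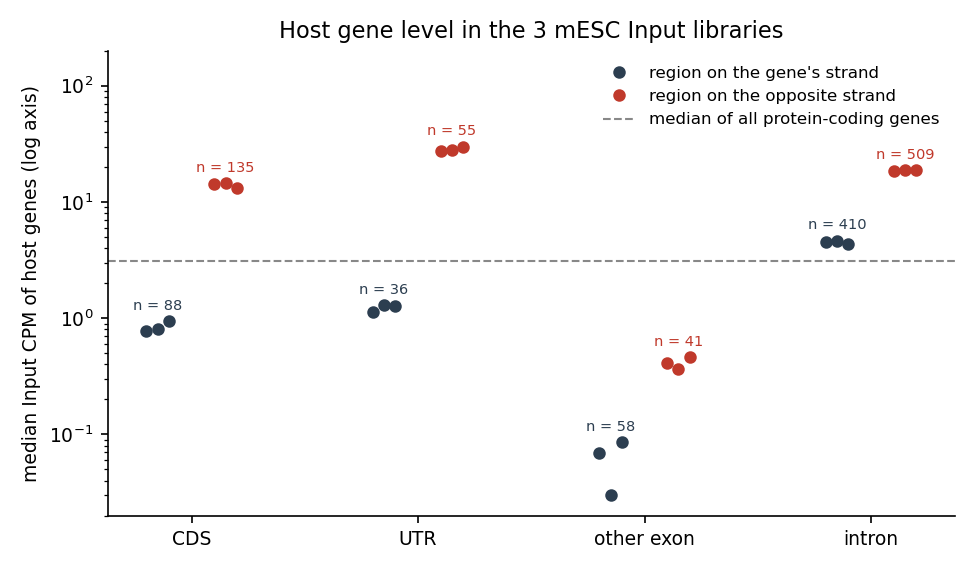
Median Input level of the host genes of members (CPM, log axis) by the position of the member, with 1 point per mESC Input library; n is the number of host genes and the dashed line the median of all protein-coding genes. Hosts of opposite-strand members lie above hosts of members on their own strand at every position.

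Over all 1213 counted hosts the median was 5.02 ± 0.068 CPM (SD, n = 3), and over 21918 protein-coding genes it was 3.11 ± 0.030. Protein-coding hosts alone had 10.7 CPM, long non-coding hosts 0.41 and pseudogenes 0.12. The counts covered introns, and hosts were longer, with a median span of 57.0 kb, or 65.9 kb for protein-coding hosts, against 17.4 kb for all protein-coding genes. Per kilobase of span, from each gene's mean level, the medians were 0.0812 CPM for all hosts, 0.178 for protein-coding hosts and 0.144 for all protein-coding genes. The higher CPM of all hosts was therefore not kept per kilobase. No Input count was found in 74 hosts, in all 3 libraries, and 412 (34.0%) were under 1 CPM. At least 10 CPM were reached by 528 (43.5%). In these counts of mixed cells a lower level can come from fewer cells or from less RNA per cell, which cannot be told apart. A host that overlaps another gene on its own strand can also lose its counts, as did the 209 nested genes above. Of pseudogene hosts 23.3% had no Input count, and the part of such overlaps was not tested.

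The cells carried the markers of their label. Summed Input levels ranged from 1562 to 1585 CPM for 8 mESC markers, with Nanog at 169 and Esrrb at 793 CPM, 54.1 to 56.6 for 8 fibroblast, 241 to 248 for 8 primitive endoderm and 28.8 to 31.8 for 8 trophoblast markers. Sox2, which lies inside the non-coding gene Sox2ot, was at 0 counts. Lama1 gave 237 CPM of the endoderm sum, while Sox17 had 0.085 CPM. No mESC or fibroblast marker held a member. Nothing is read from this, since only 982 of all 21918 counted protein-coding genes were hosts.

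Host genes took a larger share of gene counts in IP than in Input. It was 7.97%, 8.02% and 7.99% in Input and 12.6%, 12.7% and 12.9% in IP, without overlap (exact two-sided permutation test, p = 0.1, the smallest that 3 against 3 libraries allow). The rule used peaks of these IP libraries, so this is a description. Hosts with a member on their strand went from 2.97 ± 0.0078% to 6.74 ± 0.10%, and hosts with opposite-strand members only from 5.02 ± 0.014% to 5.98 ± 0.087% (SD, n = 3).

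In edgeR's quasi-likelihood fit over 20244 genes, 646 of 1094 tested hosts were called higher in IP (59.0%) and 317 lower (29%), while 39.9% of all genes tested were called higher and 42% lower. Nothing is read from this excess, since the members were found in the same IP libraries. Hosts tested also had more IP reads than all genes tested, with a median of 109 and 35 counts over the 3 libraries. Genes very low in Input passed the filter on low counts only through their IP libraries and had to lie higher there. Their part in the calls and medians given here was not tested. Among hosts with a member on their strand, 403 of 525 were called higher and 74 lower, with a median log2 IP/Input of 3.57. Among hosts with opposite-strand members only, 243 of 569 were called in each direction, and the median was -0.10. Scaling by library size alone raised the median log2 IP/Input of all genes from -0.17 to 0.83 and the hosts called to 799 higher and 139 lower. Without any one of the Input libraries, the rerun filter on low counts left 12280 to 12292 genes. Among them 960 hosts were tested, and 605 or 606 were called higher and 165 or 166 lower.

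Members numbered 10 in each of Gm26870 and C130026I21Rik, the most of any gene. Gm26870, a lincRNA gene of 38032 bp on chromosome 9, had 49, 44 and 49 counts in Input and 1187, 1839 and 1469 in IP. All its IP values lay far above its Input values, and its log2 IP/Input was 9.87 ± 0.12 (SE; edgeR adjusted p = 1.4e-18). All 10 of its members were intronic, 8 on its strand, 90.1% to 100% repeat-masked and 33.3% to 37.3% G or C, far below the median of members. C130026I21Rik, on chromosome 1, stands in a cluster with the related genes Sp100, Sp110 and Sp140 and had 25, 51 and 48 Input and 71, 141 and 120 IP counts. Its 10 members were intronic too. Counts in repeats or near-identical copies can be split between loci, so those of Gm26870 and C130026I21Rik are uncertain.

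The lincRNA genes C230088H06Rik and Gm26804 and the centrosomal protein gene Sfi1 held 5 members each. Sfi1 had 216, 222 and 215 Input counts and 103, 120 and 100 IP counts from far smaller libraries, a log2 IP/Input of 3.88 ± 0.16. C230088H06Rik reached 3.82 ± 0.15 and Gm26804 4.61 ± 0.20. With 4 members each followed Gm20388, at 2.21 ± 0.063, 3110082I17Rik, at 0.72 ± 0.087, and 2610307P16Rik, at -1.17 ± 0.099 (SE, edgeR fit). Scaled by library size alone, Gm20388 had 3.22, 3110082I17Rik 1.73 and 2610307P16Rik -0.16, so the last value depended mostly on the scaling. Of these 8 hosts, 7 were called higher in IP and 1 lower, against 39.9% and 42% of all genes tested. They were ranked by peaks of the same IP libraries, so nothing is read from this count.

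The 5 hosts most abundant in Input each held 1 member, and all 5 were called lower in IP, as were 42% of all genes tested. They were ranked by Input, one side of this comparison. Macf1, which links actin filaments to microtubules, had 2967, 2976 and 2960 CPM in Input and 1483, 1473 and 1590 in IP. Its IP values lay below all its Input values, and its log2 IP/Input was -1.94 ± 0.041. Its member lay opposite in an intron, so the member's reads were not in these counts. Snd1, a nuclease of the RNA-silencing machinery, had -2.12 ± 0.051, the actin nucleator Cobl -2.07 ± 0.055, the kinase Camk1d -1.25 ± 0.067 and the teneurin Tenm3 -1.35 ± 0.055. Scaled by library size alone, Macf1 had -0.93, Snd1 -1.12 and Cobl -1.07, while Camk1d had -0.25 and Tenm3 -0.35. The members of Snd1, Cobl, Camk1d and Tenm3 were intronic, on the gene's strand and 59.4% to 100% repeat-masked.

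Among hosts of exonic members on their own strand, the most abundant in Input were Camta1, Syncrip, Asph, Usp14 and Ctif. Syncrip, an RNA-binding protein, had 224, 230 and 227 CPM in Input and 104, 145 and 123 in IP, and a log2 IP/Input of -1.83 ± 0.11. Its member lay in a UTR close to the gene's start and was 69.3% G or C. Camta1, a calmodulin-binding transcription activator, had 0.32 ± 0.075, the deubiquitinase Usp14 -2.33 ± 0.15, the hydroxylase Asph -0.52 ± 0.13 and the translation factor Ctif -0.39 ± 0.11. Asph and Ctif turned positive, at 0.48 and 0.62, when scaled by library size alone.

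**Figure D5:**
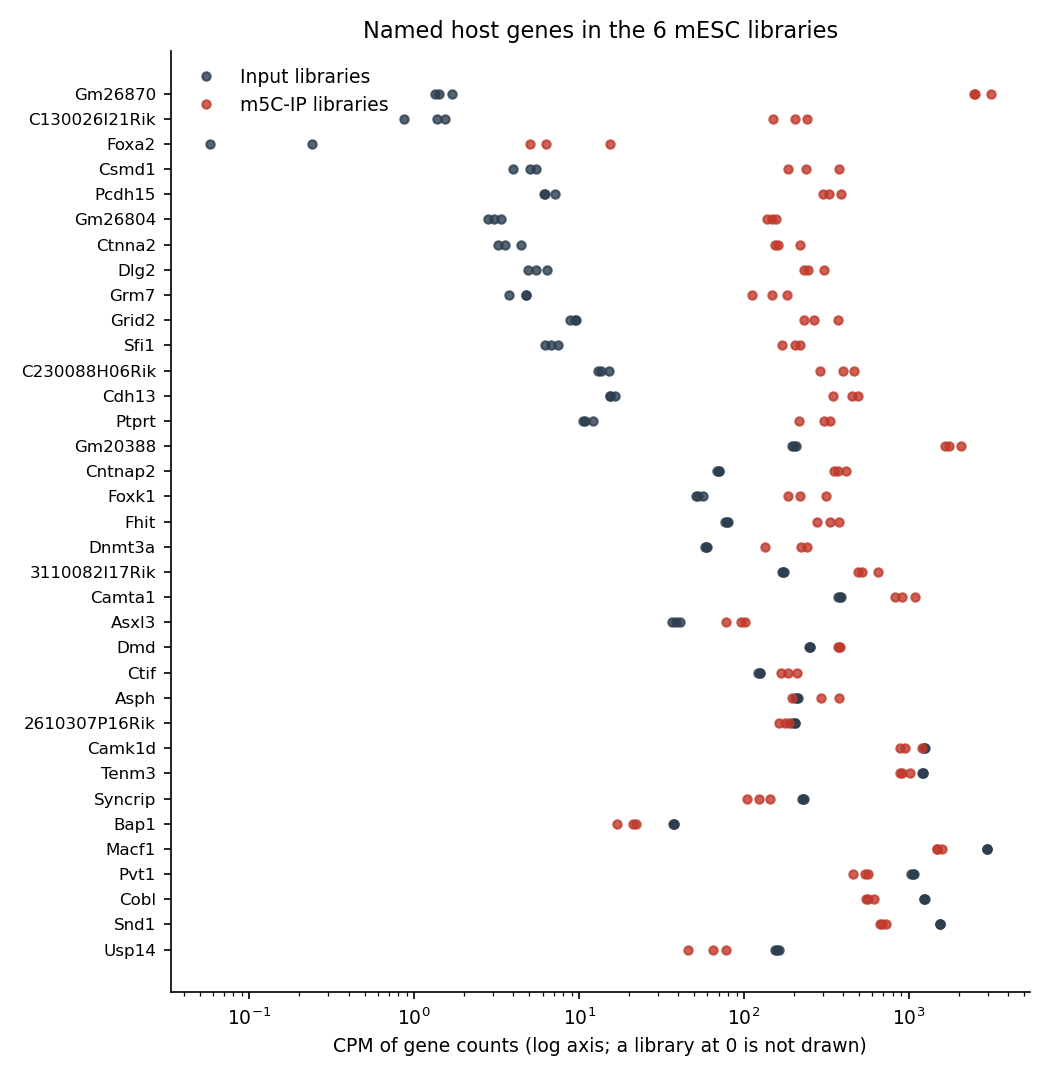
CPM of gene counts (log axis) of the named host genes in the 3 Input and 3 m5C-IP libraries of mESC, 1 point per library, ordered by the fitted log2 IP/Input. The IP points of Gm26870 lie between 2480 and 3127 CPM, against 1.33 to 1.69 CPM in Input, while those of Usp14 lie below all its Input points.

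In a list of 11 counted genes for m5C writers, oxidases, readers and their partners, only Bap1, the catalytic subunit of PR-DUB, held a member. None of the writers, oxidases and readers themselves did. Of all 54409 counted genes 1213 were hosts, and of 21918 protein-coding ones 982. Nothing is therefore read from the few hosts in this list or in the Polycomb, pluripotency, lncRNA and repeat-silencing lists below. The region of Bap1 lay in its CDS on the opposite strand, at chr14:31256601-31256751, with peaks of replicates 1 and 2. Bap1 had 36.9, 37.6 and 37.6 CPM in Input and 21.1, 22.1 and 16.9 in IP, all below Input, with a log2 IP/Input of -1.88 ± 0.24 (edgeR adjusted p = 2.5e-06). The IP values rested on 10, 13 and 10 reads, which did not include those of the opposite-strand member.

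Of 20 Polycomb and PR-DUB genes, Bap1, Asxl3 and Foxk1 held members. The forkhead factor Foxk1, which binds BAP1, held 2, in an intron and a UTR and both opposite. Its log2 IP/Input was 1.16 ± 0.15, from counts on its own strand that leave out the reads of both members. Asxl3, a BAP1 cofactor, held 1 in an intron and did not pass the test (0.27 ± 0.16, edgeR adjusted p = 0.14). None of 20 pluripotency factors held a member, and with so few hosts among all genes nothing is read from this.

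Of 18 chromatin-retained lncRNAs only Pvt1 did, opposite in an intron. Its log2 IP/Input, from counts on its own strand without the member's reads, was -1.98 ± 0.065. Of 17 repeat-silencing genes only the DNA methyltransferase gene Dnmt3a did. Its member lay in an intron on its strand, with peaks of replicates 2 and 3. Dnmt3a had 63, 131 and 143 IP counts and a log2 IP/Input of 0.82 ± 0.15 (edgeR adjusted p = 7.7e-05).

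Very long genes, many of them with roles in cell adhesion or at synapses, held members most often among the lists, in 13 of 30. Their spans ranged from 308 to 2271 kb, and 31.7% of all coding genes over 500 kb were hosts. Of the 13, 11 were called higher in IP and 2, Tenm3 and Dmd, lower, and the median log2 IP/Input was 3.79. Of all genes tested, 39.9% were called higher and 42% lower, and the peaks that made these genes hosts came from the same IP libraries. Csmd1, a large complement-control protein, had 116, 180 and 176 Input and 179, 108 and 140 IP counts and a log2 IP/Input of 4.77 ± 0.23. Pcdh15, a protocadherin of hair cells, had 4.73 ± 0.14 and the postsynaptic scaffold Dlg2 4.58 ± 0.16. Dmd, the dystrophin gene, had -0.38 ± 0.074 and turned positive, at 0.63, when scaled by library size alone. In Input, 9 of the 13 were at 3.73 to 15.8 CPM.

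The developmental transcription factors Foxa2 and Hand1 were near the floor in Input. Foxa2 had 7, 0 and 2 Input and 3, 9 and 3 IP counts. Hand1 had 1 Input count in all and 0, 8 and 3 IP counts and was not tested. Both members lay opposite, that of Foxa2 in its CDS and that of Hand1 in a UTR, so their reads were not in these counts.

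The K562 libraries had no part in choosing the members. Of 984 symbols of protein-coding hosts, 820 were shared with a human gene and 621 genes could be tested among 14522. Of these, 154 were called higher in IP (24.8%) and 150 lower (24.2%), against 15.1% and 16.4% of all genes tested. Without 1 Input library fewer genes passed the filter on low counts, and in them the excess in both directions was not kept, as given below. In the main fit, genes very low in Input passed this filter only through their IP libraries and had to lie higher there. This held among all genes tested too, and how many of the 154 were such genes was not counted. The genes sharing a host symbol had more reads than all genes tested, with a median of 19 against 10 IP counts and 1844 against 890.5 Input counts over 3 libraries, and the part of read number in the calls was not tested. The median log2 IP/Input was -0.088 for these genes and -0.16 for all. Scaled by library size alone, 179 were called higher and 73 lower.

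The K562 calls rested on few reads and on Input libraries that barely differed. K562 IP held 93110 to 111286 gene counts and Input 10477119 to 11865285. Over genes, Input replicates 1 and 2, and 1 and 3, differed by less than sampling noise (chi-square per degree of freedom 0.912 and 0.918), but all pairs differed over 20 bins of GC content (19.6 or more), so they were kept as 3 samples. Summed as 1 sample, they left 36 genes called higher and 25 lower of 299 tested. Without any one of them, 264 were tested, 51 or 52 called higher (19.3% to 19.7%) and 33 to 36 lower (12.5% to 13.6%). Of all genes tested in these fits, 18.6% to 19.4% were called higher and 10.6% to 12.3% lower, so the shares lay close together. The rerun filter left 3721 to 3726 genes in them, against 14522, so they do not cover the same genes. Without any one IP library, 20.1% to 22.4% of the genes sharing a host symbol were called higher and 21.1% to 22.1% lower. Of all genes tested there, 11.6% to 13.0% were called higher and 13.3% to 13.8% lower.

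Named hosts differed in how their K562 values lay. Cdh13, Pcdh15, Ptprt and Ctnna2, all higher in mESC IP, had K562 log2 IP/Input values of 5.63 ± 0.40, 4.59 ± 0.50, 4.58 ± 0.58 and 3.18 ± 0.50. Cdh13 had 32, 18 and 29 Input and 13, 19 and 10 IP counts, and Ptprt 13, 23 and 26 Input and 3, 7 and 6 IP counts. Pcdh15 had 30, 26 and 29 Input and 5, 9 and 8 IP counts. Ctnna2 had 61, 64 and 61 Input and 7, 6 and 5 IP counts, so these values rested on few reads too. Cdh13 and Ptprt passed the filter on low counts only through their IP libraries and had to lie higher there, so nothing is read from their values. Dnmt3a had 0.92 ± 0.32 (edgeR adjusted p = 0.017). Csmd1, Dlg2, Grm7 and Cntnap2 did not pass the test in K562, with values from 0.048 to 0.29. Macf1 and Snd1 were lower in K562 IP too, at -0.32 ± 0.093 and -0.43 ± 0.083.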

How the data were processed

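Counts per gene were measured for 3 Input and 3 m5C-IP libraries each of mESC and K562, and peak lists for the 3 mESC IP libraries. According to the study's methods and the submitters' processing notes, the authors trimmed reads with Trimmomatic 0.39, aligned them with HISAT2 2.1.0 to mm10 or hg38, removed duplicates, and called peaks per strand with MACS2, extending fragments to 150 bp. The counts are deposited as raw whole-number counts per gene; the methods name HTSeq for gene counts of RNA-seq, but its use and strand setting for these libraries are not given in the sources used here, nor is the control used for peaks. The deposited peak positions, in mm10 coordinates, carry no score. Repeated lines were counted once. Counts in the closing lines that name no gene, 19.0% to 19.3% of records in mESC Input, 71.4% to 71.7% in mESC IP, 26.0% to 26.2% in K562 Input and 60.7% to 61.4% in K562 IP, stayed out of library sizes and tests.

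Hosts, positions and sequence came from GENCODE M21 and the soft-masked GRCm38 assembly, and human symbols from GENCODE 44, other releases than the study's. Of 54446 mouse gene identifiers, 54409 matched without version, and 13 hosts had no counts. Where genes overlapped, the host was the gene on the peak's strand, then one with the midpoint in an exon, then coding, then the shortest. Genes were fitted with edgeR 4.0.16 in R 4.3.3 (TMM, filterByExpr, quasi-likelihood test, Benjamini-Hochberg adjustment at 0.05); the standard error was the absolute log2 fold divided by the square root of F. DESeq2 1.42.0 was an alternative. Scripts were tested on simulated data, in which the share of false calls ran above the nominal rate for K562 and in part for mESC. Calls in both lines may therefore be somewhat liberal. The simulated spread between libraries was near that of mESC and wider than that of K562. How liberal the K562 calls are can thus not be read from it. Intervals are Clopper-Pearson and cover counting error only, since several reads can stem from 1 molecule where none is tagged. Named were the 8 hosts with most members, the 5 most abundant in Input, the 5 most abundant with an exonic member on their strand, and every gene of 10 lists that held a member; 1 of these is not reported here. Members and lists were chosen with earlier results of these data known.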

Additional observations from a re-analysis of the deposited data

Results flagged for a closer look

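For 6 named hosts, every mESC IP library lay on one side of every Input library after TMM scaling and every K562 IP library on the other side. Fhit had a log2 IP/Input of 1.08 in mESC and -1.12 in K562, Sfi1 3.88 and -0.82, and Foxk1 1.16 and -0.32, the last without passing the test in K562. For Sfi1 and Foxk1 the K562 groups overlapped in CPM without TMM factors. Cobl had -2.07 in mESC and 4.51 in K562, Tenm3 -1.35 and 4.74, and Camk1d -1.25 and 1.71. In K562 Cobl had 3, 2 and 1 IP and 6, 10 and 8 Input counts, Tenm3 1, 6 and 4 IP and 17, 10 and 11 Input counts, and Camk1d 3, 6 and 4 IP and 142, 131 and 101 Input counts. Cobl and Tenm3 were so low in Input that only their IP libraries brought them past the filter, so their K562 values support no direction. The difference between the lines was not tested.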

How the results depend on the processing

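Of 88 alternative values, 57 moved little and 31 moved. Members numbered 999 to 1487 under all definitions but one: 675 lay in a gene on the peak's strand, and 43.4% of those were at least 50% repeat-masked. With coding hosts alone, 41.1% lay on the gene's strand and 34.6% were at least 50% masked. Leaving out 1 peak list, which admits regions of all 3, gave 999 to 1306 members, 49.2% to 50.0% on the gene's strand, 23.6% to 25.5% in exons and 47.9% to 53.5% masked. The Input median of hosts was 10.6 CPM over genes with at least 10 counts, 1.17 CPM per kb of exon and 0.0818 CPM per kb of span, the last chosen after seeing the data, and 4.99 to 5.06 CPM without 1 library.

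In mESC, hosts called lower numbered 139 by library size alone and 165 to 319 without 1 library, where leaving out an Input library left 960 hosts tested; hosts called higher numbered 605 to 635. In K562, genes called lower numbered 73 by library size alone, 99 by DESeq2 and 240 without the filter. Without 1 K562 library, 51 to 146 were higher and 33 to 144 lower, and leaving out any Input library left 264 tested. Summing the K562 Input libraries, also chosen after seeing the data, gave 36 and 25. Under the replicate block 618 mESC hosts were higher and 293 lower, and 141 and 134 genes in K562. Same-numbered libraries correlated by 0.018 to 0.027 in mESC and -0.0067 to 0.022 in K562. In mESC these values lay above those of differently numbered libraries, which reached at most -0.0011. In K562 that of replicate 1 lay below, at -0.0067 against 0.0099. Correlations this weak do not decide whether the numbers pair samples, and the main fits used no block. The gain in the hosts' share of counts in IP was 4.65 to 4.80 percentage points without 1 library, a check added after seeing the data. A stricter peak score was not run, because the lists carry no score. The IP depth, at most 592324 gene counts, limits values of genes under 3 counts.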
